A study of Mus musculus with 124 samples.

Results

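The mitochondrial ribosomal protein genes were followed in 2 tissues of 62 mice, cerebral cortex and liver, over a baseline day, 6 h of sleep deprivation and the days after it. The members are every gene whose symbol is Mrpl or Mrps followed by a number and at most 1 letter, a rule that uses names and no measured value, although the gene family was taken up with earlier results of these data known. The name picked 77 of the 17108 named genes in cortex and the same 77 of the 13338 in liver, of which 48 are Mrpl and 29 are Mrps genes. All mice were 11 to 12 weeks old and lived in a cycle of 12 h light and 12 h dark, and the labels give neither their strain nor their sex. Times of day are given as zeitgeber time (ZT), counted in hours from lights on. The 26 undisturbed controls comprised 8 mice at ZT0, 3 at ZT3, and 5 each at ZT6, ZT12 and ZT18. Sleep deprivation by gentle handling took up the opening 6 h of the light phase on the next day, in the remaining 36 mice. These form 12 groups of 3 mice, each named by its hour since the baseline day began, with the deprivation lasting from hour 24 to hour 30. T27 and T30 fall during and at the end of it. The recovery groups on the first day and night were T36 and T42. The later ones were T48, T54, T60 and T66, then T72 and T78, and about a week on T192 and T198. Each mouse gave 1 cortex and 1 liver library, and each deprived group was set against the controls of its own ZT.

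Mitochondrial ribosomes sit inside mitochondria and make the few proteins that the mitochondrial genome encodes, which are core parts of the respiratory chain and of the ATP synthase. Their RNAs come from mitochondrial DNA, while all of their proteins are encoded in the nucleus, made in the cytosol and imported, and are shared between a large and a small subunit. Some of these proteins descend from bacterial ribosomal proteins and others exist only in mitochondria. ETS-family factors such as GABP, and the factors NRF1 and YY1, are known to bind the promoters of many nuclear genes for mitochondrial proteins.

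Values are log2 CPM, in which counts are relative to the total of their library but are not scaled by gene length, so levels are compared between mice and not between genes. Averaged over libraries, the members lay between 1.77 and 6.05 in cortex, with a median of 4.23 beside 3.98 for all genes, and between 1.65 and 6.23 in liver, with a median of 4.33 beside 3.77. The tables are of the tissues they name: the marker means of neurons stayed between 9.24 and 9.47 in cortex and those of hepatocytes between 11.74 and 12.70 in liver. Other lists were less even. In liver, marker means ran from 2.20 to 4.04 for macrophages and from 2.79 to 4.81 for endothelium. The 2 hepatocyte markers in the cortex table had means from -3.68 to 1.84. In bulk tissue, fewer cells of a type and less RNA per cell cannot be told apart. By the labels, batch 2 holds the deprived groups T60 and T66 and both groups of the last week, batch 1 holds the others, and controls of ZT0, ZT6, ZT12 and ZT18 come from both. A difference is a log2 fold change from a limma fit with its standard error (SE), and a gene is called to have changed when its p, adjusted by Benjamini-Hochberg over all genes of the tissue, is at most 0.05.

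The promoters of these genes carried the letters of ETS, NRF1 and YY1 motifs more often than promoters at large. RefSeq sequences (GRCm38.p6) from 250 bases before to 50 bases after the transcription start were at hand for 68 of the 77 members and 27025 genes in all. The 27025 genes outnumber the 17108 named genes in cortex, so they include genes not measured there. Shares over measured genes alone were not counted. Searched on both strands, the ETS letters CCGGAAG stood in 25 of the 68 member promoters (36.8%) and in 9.93% of all. The NRF1 motif stood in 13 (19.1%) against 5.19%, and the YY1 letters AAGATGG also in 13 (19.1%) against 7.28%. The E-box CACGTG, which clock factors can bind, was in 5 member promoters (7.35%) against 8.09% of all, and the cyclic AMP response element TGACGTCA in 2 (2.94%) against 2.03%. One spelling of the serum response element was in 0 of the 68 and in 0.0777% of all. A match describes the letters and is not a measured site. The stretches below belong to the 6 members with a promoter in the table and the smallest p over all 12 deprived times. They run 5′ to 3′ on the strand of the gene, with motif letters of either strand in capitals, and are cut so that each shows at most 30 bases of an annotated UTR. Within that limit, the cut was chosen to keep the most motif matches and then the greatest length.
Mrps11: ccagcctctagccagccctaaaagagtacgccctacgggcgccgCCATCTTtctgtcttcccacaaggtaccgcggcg
Mrpl21: gcacaaggttcgcgctgcttccgCTTCCGG
Mrpl35: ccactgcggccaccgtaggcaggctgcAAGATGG
Mrps18a: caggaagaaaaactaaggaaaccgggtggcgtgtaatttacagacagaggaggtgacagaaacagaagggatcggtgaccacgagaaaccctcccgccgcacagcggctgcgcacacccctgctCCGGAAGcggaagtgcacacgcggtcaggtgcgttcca
Mrpl58: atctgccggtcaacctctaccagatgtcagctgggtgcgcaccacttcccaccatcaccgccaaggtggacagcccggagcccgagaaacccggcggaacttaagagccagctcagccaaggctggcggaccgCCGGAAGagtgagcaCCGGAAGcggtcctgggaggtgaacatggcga
Mrpl51: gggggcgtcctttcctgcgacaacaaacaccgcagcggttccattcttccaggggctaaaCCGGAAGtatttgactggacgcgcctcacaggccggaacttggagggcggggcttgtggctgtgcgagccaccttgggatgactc

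The Mrps11 stretch is chr7:78782981-78783058, and it lies inside the neighbour Mrpl46, which is read from the other strand and overlaps the start of Mrps11. The Mrpl21 stretch is chr19:3283026-3283055, the Mrpl35 stretch chr6:71823755-71823788 on the minus strand, the Mrps18a stretch chr17:46110854-46111015, the Mrpl58 stretch chr11:115403602-115403781 and the Mrpl51 stretch chr6:125192050-125192194. Of these 6, 4 hold ETS letters, and Mrps11 and Mrpl35 hold YY1 letters. Among members whose RNA was higher in cortex after 6 h of deprivation, 5 of 14 with a promoter had the ETS letters (35.7%), beside 36.8% of all members. The YY1 letters were in 3 of these 14 (21.4%, beside 19.1%) and the NRF1 motif in 1 (7.14%, beside 19.1%). Of the 6 members that were lower, 1 had the ETS letters (16.7%) and 0 had the YY1 letters or the NRF1 motif. These sets are small, and the differences between them were not tested.

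At the end of the deprivation, the cortex showed small changes in both directions. At T30, 16 of the 77 members were higher than in undisturbed mice at ZT6 (20.8%, beside 15.7 percent of all genes called higher) and 6 were lower (7.79%, beside 16.8 percent of all genes called lower, or 32.4 percent in either direction). The median member differed by 0.03 on the log2 scale beside -0.01 over all genes, and the members ran from -0.32 to 0.31. No member therefore moved by more than 1.25-fold. The share called higher was near that of all genes, and the share called lower was smaller. Of the proteins with bacterial relatives, 6 of 30 in the large subunit were higher and 5 lower, and 5 of 16 in the small subunit were higher and 0 lower. Among those found only in mitochondria, 3 of 20 in the large subunit were higher and 0 lower, and 2 of 10 in the small subunit were higher and 1 lower. Mrps36 is a member by its name alone and was placed in no subunit group.

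**Figure D1:**
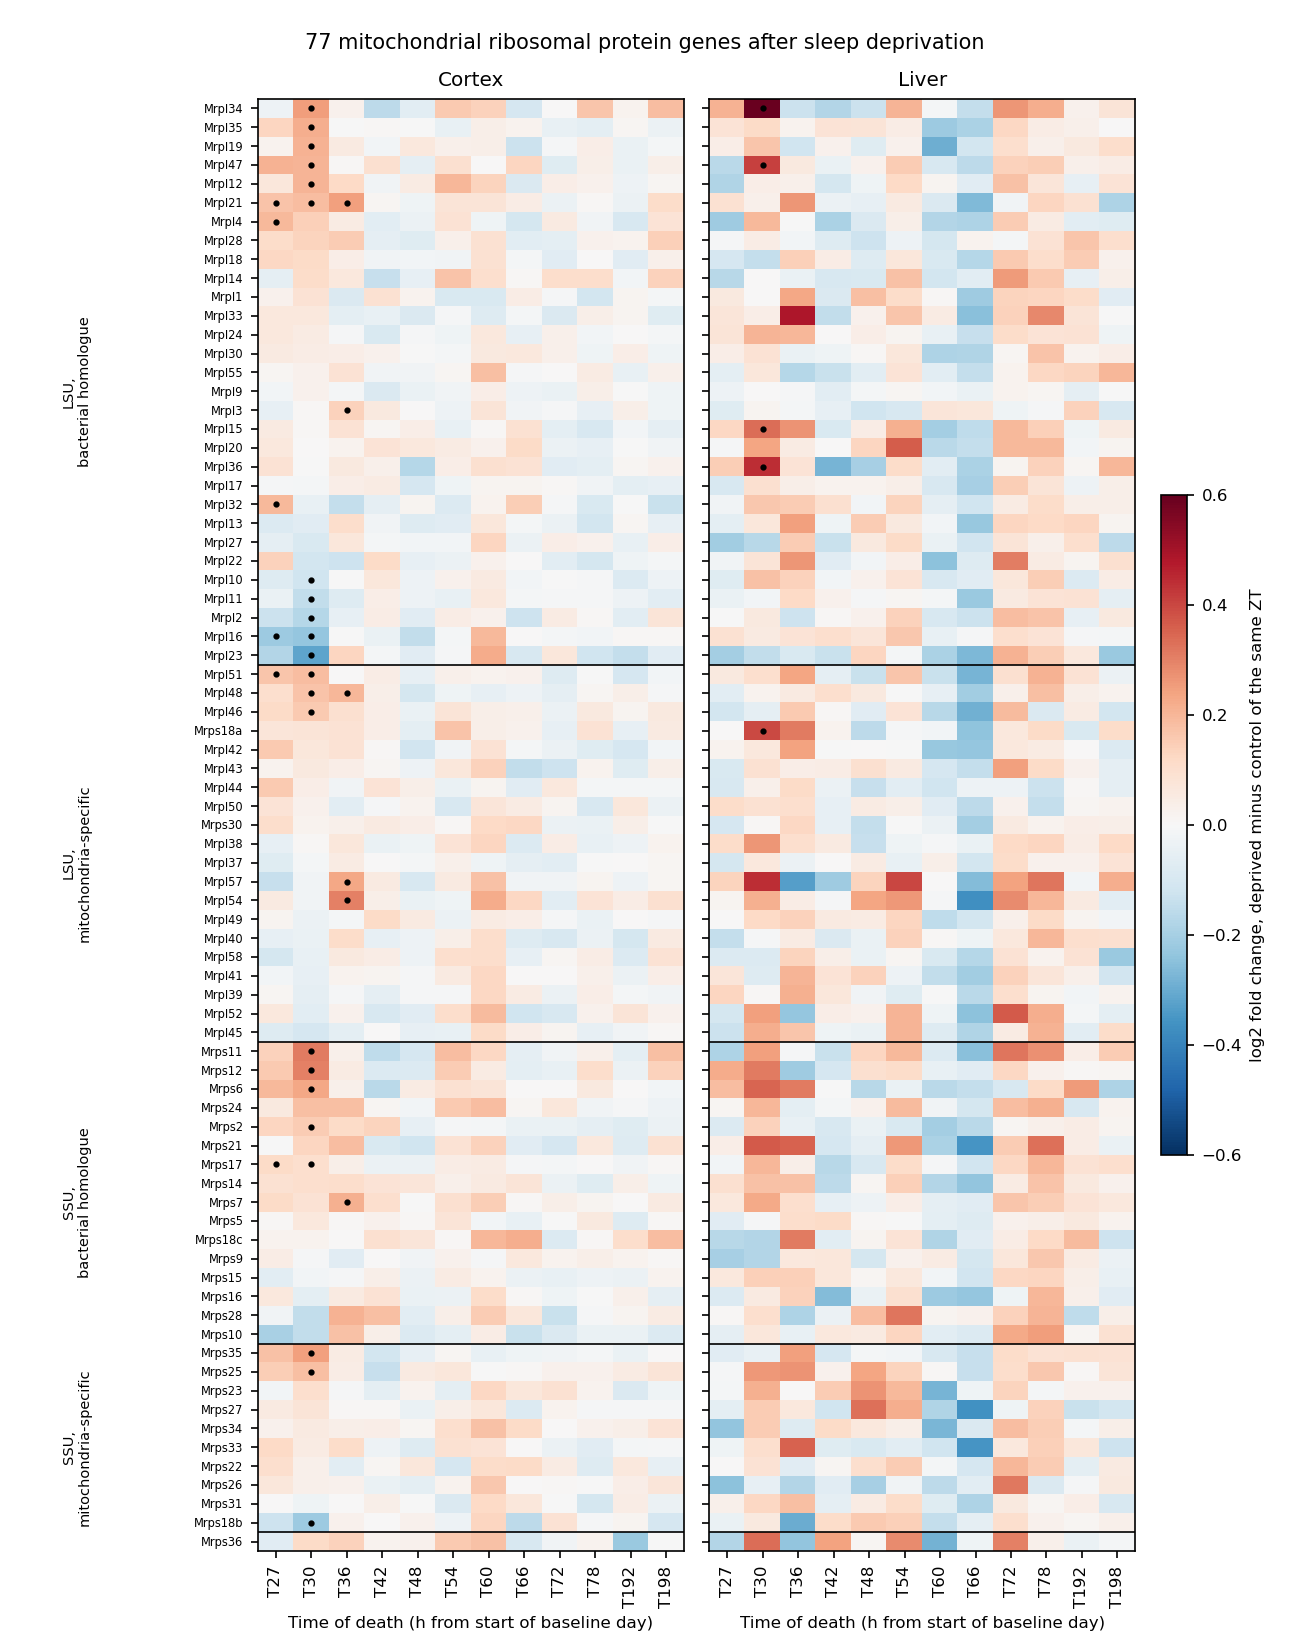
Log2 fold change of each of the 77 members (rows, in 4 subunit groups and sorted by the cortex value at T30, with Mrps36 last) at the 12 deprived times (columns) against controls of the same ZT, in cortex and liver. Black points mark adjusted p at most 0.05: they sit at T27, T30 and T36 in cortex and at T30 in liver.

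Small-subunit genes led the rises in cortex. Mrps11, which encodes a protein of the platform of the small subunit (chromosome 7, 78783119 to 78792989, plus strand), stood at 3.29, 3.32, 3.37, 3.39 and 3.50 in the ZT6 controls and at 3.66, 3.69 and 3.70 at T30. The 3 deprived libraries were all above the 5 controls. The rise was 0.31 (SE 0.06, 1.24-fold, adjusted p = 6.45e-05), and it was called under every alternative tried, with an adjusted p of at most 0.00698. Mrpl46, the large-subunit gene that overlaps it head to head, rose too, by 0.16 (SE 0.05, adjusted p = 0.0170), with means of 3.83 ± 0.06 (SD, n = 5) and 3.99 ± 0.06 (SD, n = 3). Exons of Mrps11 and Mrpl46 overlap on opposite strands, and no source used here says whether the cortex libraries were stranded. The values of these genes may therefore not be independent.

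Mrps12 (chromosome 7, 28739641 to 28741820, minus strand) encodes the protein at the decoding centre, where codon and anticodon are checked. Its controls at ZT6 were 3.82, 3.92, 3.99, 4.07 and 4.23, and its T30 libraries 4.29, 4.31 and 4.33. The deprived libraries were tightly placed above the spread-out controls, a rise of 0.30 (SE 0.07, 1.23-fold, adjusted p = 0.000514). The other small-subunit genes that rose were Mrps35 by 0.25, Mrps6 by 0.23, Mrps25 by 0.18, Mrps2 by 0.15 and Mrps17 by 0.10. Mrps6 shares exon sequence on the same strand with Slc5a3, so its value is uncertain, since no source used here says how reads in shared exons were counted.

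In the large subunit, the rises were Mrpl34 by 0.25, Mrpl35 by 0.22, Mrpl19 by 0.21, Mrpl47 and Mrpl12 by 0.20, Mrpl51 by 0.19, Mrpl21 by 0.18, Mrpl48 by 0.17 and Mrpl46 by 0.16. Mrpl12 forms the flexible stalk that recruits translation factors. Mrpl34 (chromosome 8, 71464959 to 71465747) was at 2.77, 2.80, 2.83, 2.95 and 3.03 in the controls and at 3.08, 3.11 and 3.20 at T30, with no overlap.

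The genes that fell in cortex at T30 were large-subunit genes with bacterial relatives, with 1 exception. Mrpl23 (chromosome 7, 142532686 to 142540747), whose protein lies beside the exit of the peptide tunnel, was at 1.75, 1.80, 1.85, 1.86 and 2.03 in the controls and at 1.44, 1.48 and 1.71 at T30. All 3 deprived libraries were below the controls, by 0.32 (log2 fold change -0.32, SE 0.10, 1.25-fold lower, adjusted p = 0.0158). Mrpl16 (chromosome 19, 11770391 to 11774960), near the peptidyl transferase centre, was at 4.05, 4.15, 4.16, 4.18 and 4.21 in the controls and at 3.82, 3.96 and 3.98 at T30, again without overlap. Its log2 fold change was -0.23 (SE 0.07, adjusted p = 0.00480). The 4 others were Mrps18b at -0.22, the exception from the small subunit, Mrpl2 at -0.17, Mrpl11 at -0.15 and Mrpl10 at -0.12. Mrpl10 and Mrpl11 are at the base of the same stalk that Mrpl12 forms, and Mrpl12 rose. Without mouse T30S4, none of Mrpl16, Mrpl23, Mrps18b, Mrpl2, Mrpl11 and Mrpl10 passed the threshold, and 13 members in place of 22 did. The share of all genes called in that refit was not set beside this count.

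**Figure D2:**
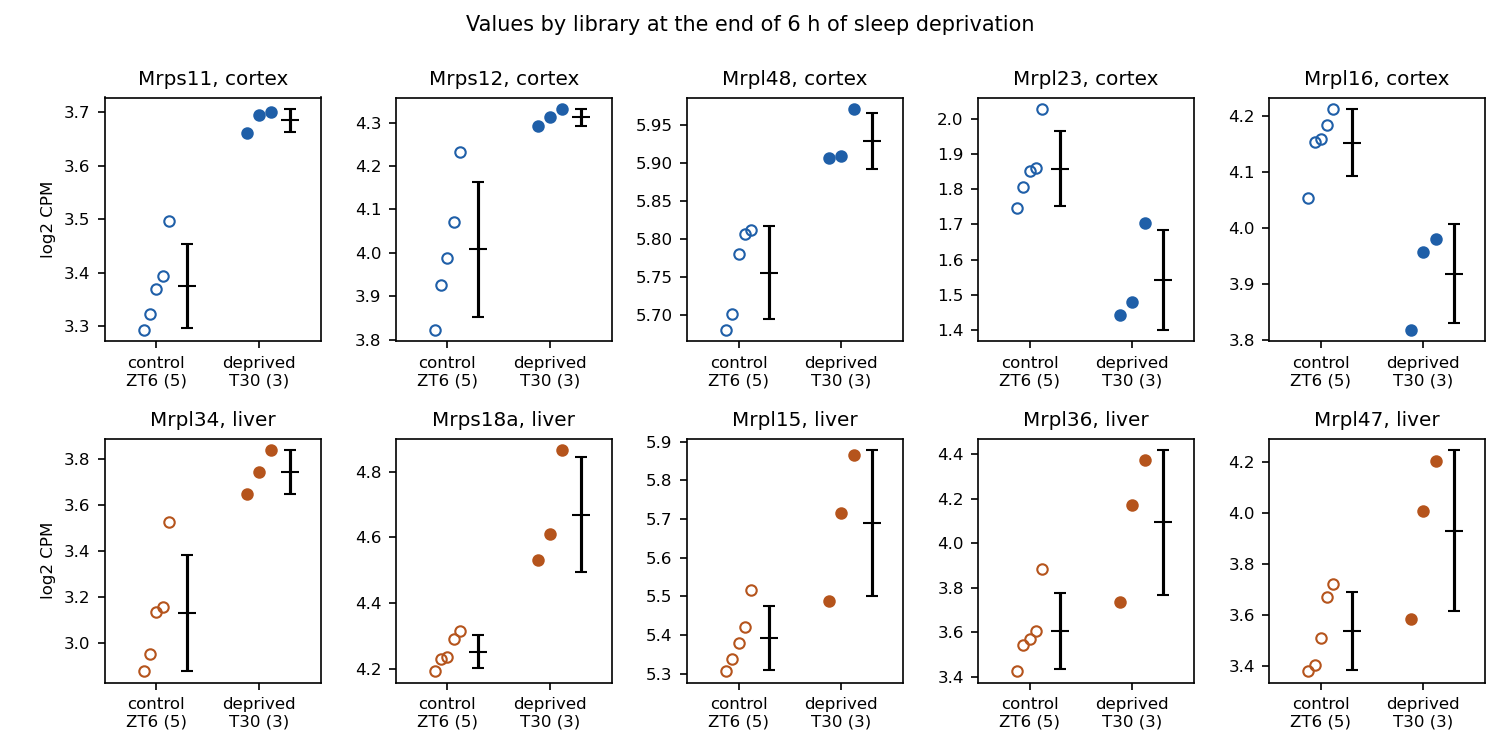
Log2 CPM of single libraries (circles, placed in order of value) in controls at ZT6 (open, 5 mice) and at the end of deprivation, T30 (filled, 3 mice), for 5 members in cortex (top) and 5 in liver (bottom). The black bar is the mean with its SD. Each panel has its own axis. The cortex genes shown do not overlap between groups, and in liver Mrpl15, Mrpl36 and Mrpl47 do.

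After 3 h of deprivation (T27) fewer members had changed. Against ZT3 controls, 5 were higher (6.49%, beside 8.59 percent of all genes called higher) and 1 was lower (1.30%, beside 7.84 percent called lower). With each library centred on its own median over all genes, 2 were higher and 1 lower. The median member differed by 0.05 beside -0.01 for all genes. Mrpl4 (chromosome 9, 21002738 to 21008839), a protein that lines the peptide tunnel, was at 4.86, 4.89 and 4.93 in the controls and at 5.01, 5.08 and 5.18 at T27, a rise of 0.19 (SE 0.07, adjusted p = 0.0351). Mrpl32 (chromosome 13, 14608184 to 14613165), whose protein must be cut by a mitochondrial protease before it joins the ribosome, was at 3.71, 3.82 and 3.83 and at 3.84, 3.99 and 4.11, also 0.19 (SE 0.07, adjusted p = 0.0453). Its lowest deprived library lay just above its highest control, and at T30 its log2 fold change was -0.04 (adjusted p = 0.643). Mrpl16 was lower at T27 as well, with 4.10, 4.13 and 4.16 in the controls and 3.78, 3.92 and 4.04 at T27, a log2 fold change of -0.22 (SE 0.07, adjusted p = 0.0304). The other three that rose were Mrpl21, Mrpl51 and Mrps17, by 0.17, 0.17 and 0.12.

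Each T27 call was lost when 1 or another library was left out, and 1 member was called without control mouse T3N2 or T3N4. Markers of the choroid plexus were high in T3N2: the mean of the 3 in the table was 3.94 there, 1.97 and 1.12 in the other ZT3 controls and 0.14 to 0.58 at T27. Of these markers, 2 of 3 were called lower at T27. The mean of the 5 stellate cell and fibroblast markers was 3.49 to 3.84 in the ZT3 controls and 3.33 to 3.45 at T27, without overlap, and 0 of the 5 were called. Sox9, the 1 gene of the cholangiocyte list in the cortex table, was 4.82 to 4.96 and 4.44 to 4.72, and was not called at T27. At T30 it was 4.43 to 4.61 beside 4.62 to 4.96 at ZT6. In cortex it is not read as a measure of cholangiocytes. The part of these markers in the T27 differences of the members was not tested. Without T3N2 the differences of Mrpl16, Mrpl4, Mrpl21, Mrpl32 and Mrps17 were no longer called. The Mrpl16 call was lost as well without T3N3, T3N4, T27S2 or T27S5.

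Of the members higher at T27, 3 of 5 (60%, and 18.8% of the 16 at T30) were also higher at T30, namely Mrpl21, Mrpl51 and Mrps17, and Mrpl16 was lower at both times. These comparisons use different control mice, and the overlap of all genes between them was not counted.

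At T36, 6 h after the deprivation had ended, 6 members were higher in cortex than at ZT12 (7.79%, beside 6.90 percent of all genes called higher) and 0 were lower, beside 5.58 percent called lower. The median member differed by 0.04, and 57 of 77 had a positive value. The signs of all genes were not set beside this count. Mrpl54 (chromosome 10, 81264713 to 81266934), a protein found only in mitochondria, was at 2.63, 2.71, 2.76, 2.77 and 2.88 at ZT12 and at 3.04, 3.06 and 3.06 at T36. The groups did not overlap, and the rise was 0.30 (SE 0.10, adjusted p = 0.0334). Mrpl21 (chromosome 19, 3282901 to 3292837) was at 3.75, 3.77, 3.77, 3.82 and 3.87 and at 3.97, 4.00 and 4.16, a rise of 0.25 (SE 0.06, adjusted p = 0.00163). The others were Mrpl57 by 0.23, Mrps7 by 0.22, Mrpl48 by 0.20 and Mrpl3 by 0.14.

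Mrpl48 (chromosome 7, 100545751 to 100608301, minus strand) had the smallest p of all members over the 12 deprived times in cortex, 3.55e-07. At ZT6 its controls were 5.68, 5.70, 5.78, 5.81 and 5.81, and at T30 the libraries were 5.91, 5.91 and 5.97. At ZT12 the controls were 5.64, 5.69, 5.71, 5.74 and 5.78, and at T36 the libraries were 5.84, 5.94 and 5.95. Deprived mice were thus above every control at both times, by 0.17 (SE 0.04, adjusted p = 0.000717) and 0.20 (SE 0.04, adjusted p = 0.000463), and both calls held under every alternative. By T42 its log2 fold change was 0.03 (SE 0.04) and at T48 it was -0.105 (SE 0.04, adjusted p = 0.169). Its exons overlap Rab6a on the other strand, and a processed copy, Mrpl48-ps, is annotated.

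From T42 on, 0 members were called in cortex at any of the 9 times. Of all genes, 0.643 percent were called higher and 0.392 percent lower at T42 (1.03 percent in all), 0.772 percent and 0.719 percent at T48 (1.49 percent in all), and 0 percent at each of the 7 times from T54 on. The median member lay between -0.03 (T48) and 0.08 (T60). At T60, 67 of 77 members had a positive value, and none was called. The signs of all genes were not set beside this count, and T60 is all batch 2. Over the 12 times together, 18 members changed in cortex (23.4%, beside 35.2 percent of all genes), led by Mrpl48, Mrps11 and Mrpl21.

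**Figure D3:**
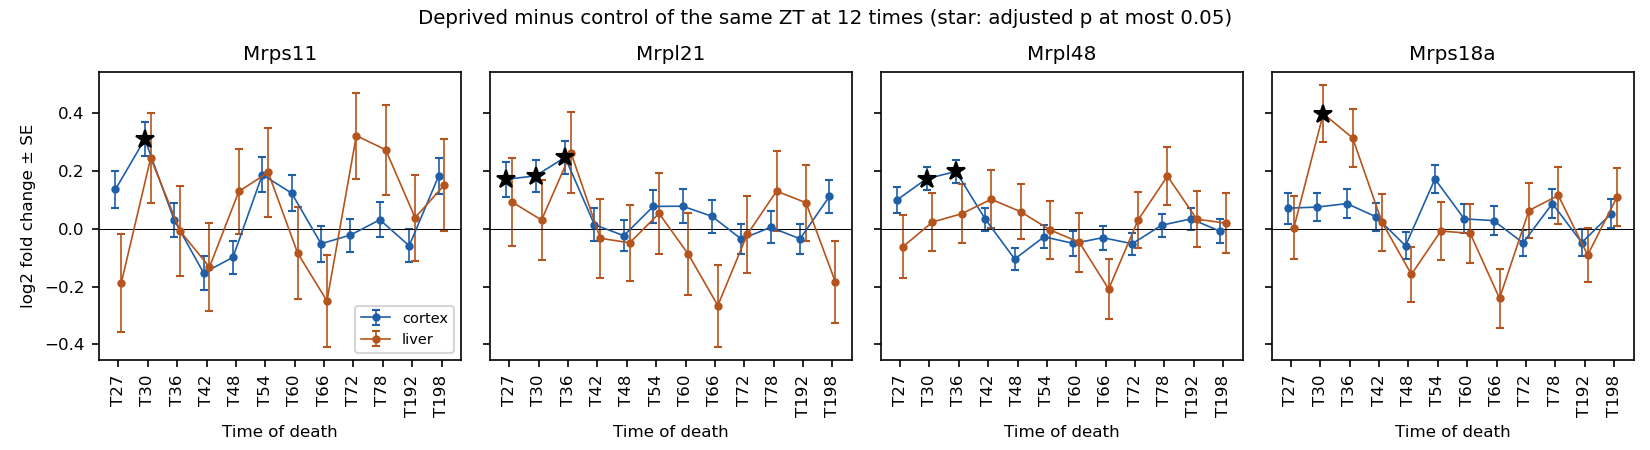
Log2 fold change against controls of the same ZT, with its SE, of Mrps11, Mrpl21, Mrpl48 and Mrps18a at the 12 deprived times in cortex (blue) and liver (brown). Stars mark adjusted p at most 0.05: in cortex Mrps11 at T30, Mrpl21 at T27, T30 and T36, and Mrpl48 at T30 and T36, and in liver Mrps18a at T30.

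In the liver, fewer members were called and the single values were larger and more spread. At T30, 5 of 77 were higher (6.49%, beside 6.34 percent of all genes called higher) and 0 were lower, beside 6.48 percent called lower. The median member differed by 0.09 beside 0.002 over all genes, and 64 of 77 had a positive value, from -0.18 to 0.59. All 5 belong to the large subunit, Mrps18a included, whose protein is placed there in spite of its name. Most of the 77 members belong to the large subunit too, and a lean of the calls to it was not tested.

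Mrpl34 was at 2.88, 2.95, 3.14, 3.16 and 3.53 in liver controls at ZT6 and at 3.65, 3.74 and 3.84 at T30. The groups did not overlap, and the rise was 0.59 (SE 0.18, 1.51-fold, adjusted p = 0.0195). Mrps18a (chromosome 17, 46110986 to 46128910) was at 4.19, 4.23, 4.24, 4.29 and 4.31 and at 4.53, 4.61 and 4.87, also apart, by 0.40 (SE 0.10, adjusted p = 0.00533). It was the 1 member called over the 12 times together in liver (1.30%, beside 6.97 percent of all genes), with an adjusted p of 0.0277. At T36 its log2 fold change was 0.31 (SE 0.10, adjusted p = 0.0920), with no overlap between the groups.

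Mrpl36 (chromosome 13, 73328513 to 73332178), a very small large-subunit protein whose gene overlaps Ndufs6 on the other strand, was at 3.42, 3.54, 3.57, 3.61 and 3.88 and at 3.74, 4.17 and 4.37. Its lowest deprived library lay below its highest control, and the rise was 0.44 (SE 0.14, adjusted p = 0.0260). Mrpl15 (chromosome 1, 4773206 to 4785739, minus strand) was at 5.31, 5.34, 5.38, 5.42 and 5.52 and at 5.49, 5.72 and 5.86, with a rise of 0.34 (SE 0.09, adjusted p = 0.0117) and overlapping groups. Mrpl47 rose by 0.41 (SE 0.14, adjusted p = 0.0467).

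These liver calls rested on few mice. Over all 77 members the mean was 4.50 in mouse T30S1, 4.37 in T30S4 and 4.24 in T30S3, beside 4.18 to 4.29 in the ZT6 controls. The mean of the macrophage markers was 2.20 to 4.01 at T30 and 2.82 to 3.87 at ZT6. For endothelium it was 3.57 to 4.47 and 3.64 to 4.76, and for hepatocytes 11.82 to 12.32 and 11.91 to 12.22. The part of cell composition in the member differences was not tested. Without T30S1 0 members were called, and without T30S3 10 were. With controls of the same label batch as the deprived mice 2 were called, and with only the ZT6 and T30 libraries in the fit 0 were. How the share of all genes called moved in these refits was not set beside the counts.

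At T27 0 members were called in liver, beside 0.630 percent of all genes called higher and 0.397 percent lower (1.03 percent in all), and at T36 0, beside 0.877 percent and 0.817 percent (1.69 percent in all). At T48 1 gene of the table was called in each direction (0.0075 percent each), and at T42 and from T54 on none was (0 percent). Most single members had values of the same sign at some of these times. The signs of all genes were not set beside these counts, and whether the members differed from them was not tested. At T66, 74 of 77 were negative, with a median of -0.14, and at T78, 71 were positive, with a median of 0.12. At T72, 70 were positive with a median of 0.11, or 0.02 without mouse T72S2, and the 3 libraries had member means of 4.22, 4.41 and 4.60 beside 4.23 to 4.34 at ZT0. The mean of the members was 4.20 to 4.34 in the T66 libraries and 4.29 to 4.52 in the ZT18 controls, so these groups overlapped, and it was 4.33 to 4.38 at T78 beside 4.18 to 4.29 at ZT6. Both T66 and T78 share their controls with other times, and T66 is all batch 2.

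Whether the tissues differed was tested as the difference of their deprivation effects. At T30, 5 of the 77 members differed, a smaller share than the 10.8 percent of all 12194 genes present in both tables. Of all these genes, 5.49 percent had the cortex effect above the liver effect and 5.32 percent below. All 5 members had the lower value in cortex. Mrpl10 (chromosome 11, 97041560 to 97049213) was at 5.16, 5.18, 5.20, 5.22 and 5.25 in cortex controls and at 5.05, 5.09 and 5.11 at T30. In liver its controls were 5.11, 5.12, 5.15, 5.17 and 5.19, and its T30 libraries 5.17, 5.35 and 5.39. It was lower than the controls in cortex and overlapped them in liver, and the cortex effect minus the liver effect was -0.29 (SE 0.08, adjusted p = 0.00836).

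Mrpl45 (chromosome 11, 97315716 to 97329920), which ties the ribosome to the inner membrane, was called in neither tissue alone, with log2 fold changes of -0.10 (adjusted p = 0.137) in cortex and 0.22 (adjusted p = 0.0647) in liver. The difference was -0.32 (SE 0.09, adjusted p = 0.0147). For Mrpl15 the cortex effect was 0.01 and the difference -0.33 (SE 0.11, adjusted p = 0.0345). For Mrps18a the difference was -0.32 (SE 0.11, adjusted p = 0.0361), and for Mrpl36 it was -0.45 (SE 0.16, adjusted p = 0.0485). With each mouse as its own pair of tissues (replicate block), 2 of these remained called, Mrpl10 (-0.27, adjusted p = 0.0285) and Mrps18a (-0.31, adjusted p = 0.0456), beside 9.45 percent of all genes (4.89 percent above and 4.56 percent below). Without mouse T30S1, or without T30S4, 0 were called.

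Mrpl34 and Mrpl47 were the members called at T30 in both tissues, 2 of the 16 higher in cortex (12.5%) and 2 of the 5 in liver (40%). How many of all genes were shared so was not counted. No member was called in opposite directions. At the other 11 times 0 members differed between the tissues. Of all genes, 1.68 percent did at T27, 3.40 percent at T36, 0.0492 percent at T48, 0.0082 percent at T60 and 0 percent at the other 7 times.

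**Figure D4:**
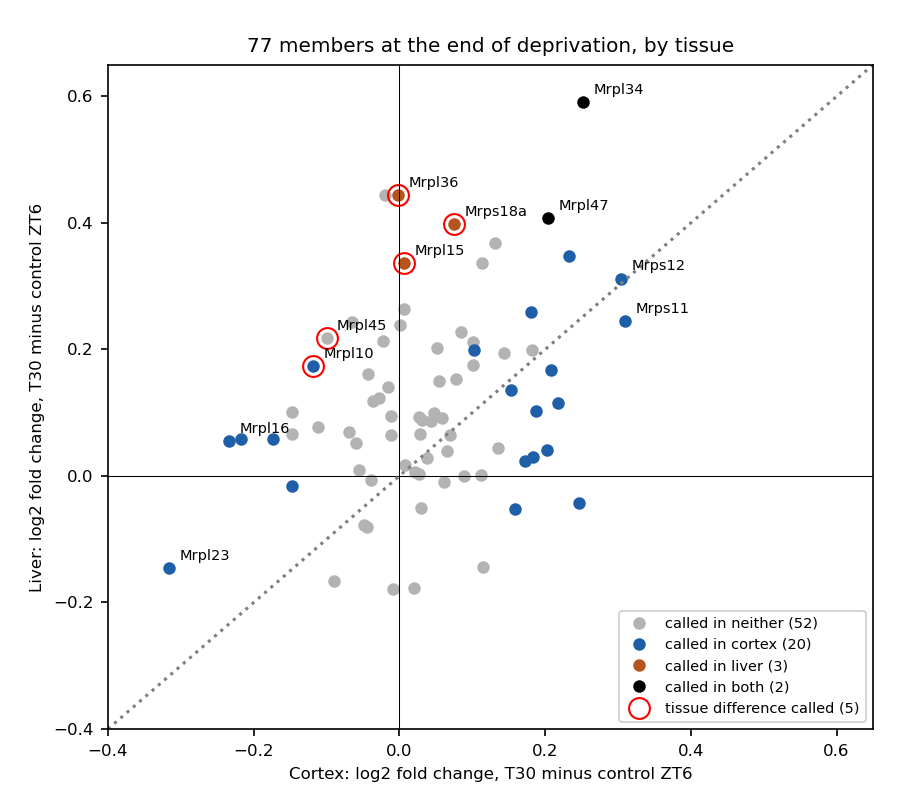
Log2 fold change at T30 against ZT6 controls in cortex (x axis) and liver (y axis), 1 point per member. Blue points were called in cortex (20), brown in liver (3), black in both (2) and grey in neither (52). Red rings mark the 5 members whose effects differed between the tissues, all above the dotted line of equal effects.

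The members also varied over the day in undisturbed mice. Over the 5 control times, 21 of 77 members varied in cortex (27.3%, beside 41.9 percent of all genes) and 26 in liver (33.8%, beside 47.1 percent), in both tissues below the share of all genes. The median range between the highest and lowest time was 0.13 in cortex and 0.25 in liver, beside 0.21 and 0.42 for all genes. In cortex, 13 of the 21 were highest at ZT18, in the dark phase when mice are mostly awake, and 7 were lowest at ZT6. In liver, 13 of the 26 were highest at ZT18 and 11 at ZT12, and 14 were lowest at ZT6. The phases of all genes were not counted, so these are not shown to be particular to the members. The T30, T54, T78 and T198 comparisons share the ZT6 controls with these ranges.

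In cortex the widest range was that of Mrps11, 0.38 (1.30-fold, adjusted p = 1.38e-07). Its level was 3.64 ± 0.10 (SD, n = 8) at ZT0, 3.54 ± 0.17 (n = 3) at ZT3, 3.38 ± 0.08 (n = 5) at ZT6, 3.47 ± 0.03 (n = 5) at ZT12 and 3.75 ± 0.08 (n = 5) at ZT18. The ZT6 and ZT18 libraries were fully apart, with 3.29 to 3.50 against 3.66 to 3.84, while ZT3 overlapped both ZT0 and ZT6. The T30 libraries, at 3.66 to 3.70, lay within the range of the ZT0 controls and at the lower end of ZT18. Mrps6 (chromosome 16, 92058270 to 92112227) ranged over 0.33 (adjusted p = 0.000712), from at most 3.02 at ZT6 to at least 3.14 at ZT18. Mrpl34 ranged over 0.31 (adjusted p = 0.000772), from 2.77 to 3.03 at ZT6 to 3.12 to 3.23 at ZT18.

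In liver the widest range was also that of Mrpl34, 0.87 (1.82-fold, adjusted p = 3.26e-05). Its libraries were 3.42 to 3.91 at ZT0, 2.95 to 3.62 at ZT3, 2.88 to 3.53 at ZT6, 3.24 to 3.62 at ZT12 and 3.67 to 4.30 at ZT18. The ZT18 libraries lay above all of those at ZT3, ZT6 and ZT12 and overlapped those at ZT0, while ZT0, ZT3, ZT6 and ZT12 each overlapped the next. Mrpl36 ranged over 0.65 (1.57-fold, adjusted p = 2.03e-05), from 3.42 to 3.88 at ZT6 to 4.07 to 4.39 at ZT18. Mrps21 (chromosome 3, 95862634 to 95871519, minus strand) ranged over 0.62 (1.53-fold, adjusted p = 0.000162), from 3.75 to 3.92 at ZT6 to 4.19 to 4.79 at ZT18. Both pairs of groups were fully apart. Not every member followed this course: Mrps9 was highest at ZT12 and lowest at ZT18 in both tissues, with ranges of 0.14 in cortex and 0.38 in liver.

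A set of 9 members varied over the day in both tissues, 42.9% of the cortex list and 34.6% of the liver list. Of all genes, 47.1 percent varied in liver and 41.9 percent in cortex. The overlap over all genes was not counted, so no excess of shared members is shown. They were Mrpl2, Mrpl19, Mrpl34, Mrps6, Mrps9, Mrps10, Mrps17, Mrps21 and Mrps25. The daily course differed between the tissues for 26 of the 77 members, a smaller share than the 45.9 percent of all genes. With the replicate block it differed for 20 of the 77, again a smaller share than the 42.8 percent of all genes. The smallest p was that of Mrpl15 (adjusted p = 7.04e-06). Its liver libraries were 5.31 to 5.52 at ZT6 and 5.82 to 6.13 at ZT18, and its cortex libraries 4.49 to 4.67 and 4.40 to 4.61. The next were Mrps21 (adjusted p = 1.84e-05) and Mrpl36 (adjusted p = 0.000422), whose cortex ranges were 0.24 and 0.17. With batch 1 controls alone, 13 members were called in liver.

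**Figure D5:**
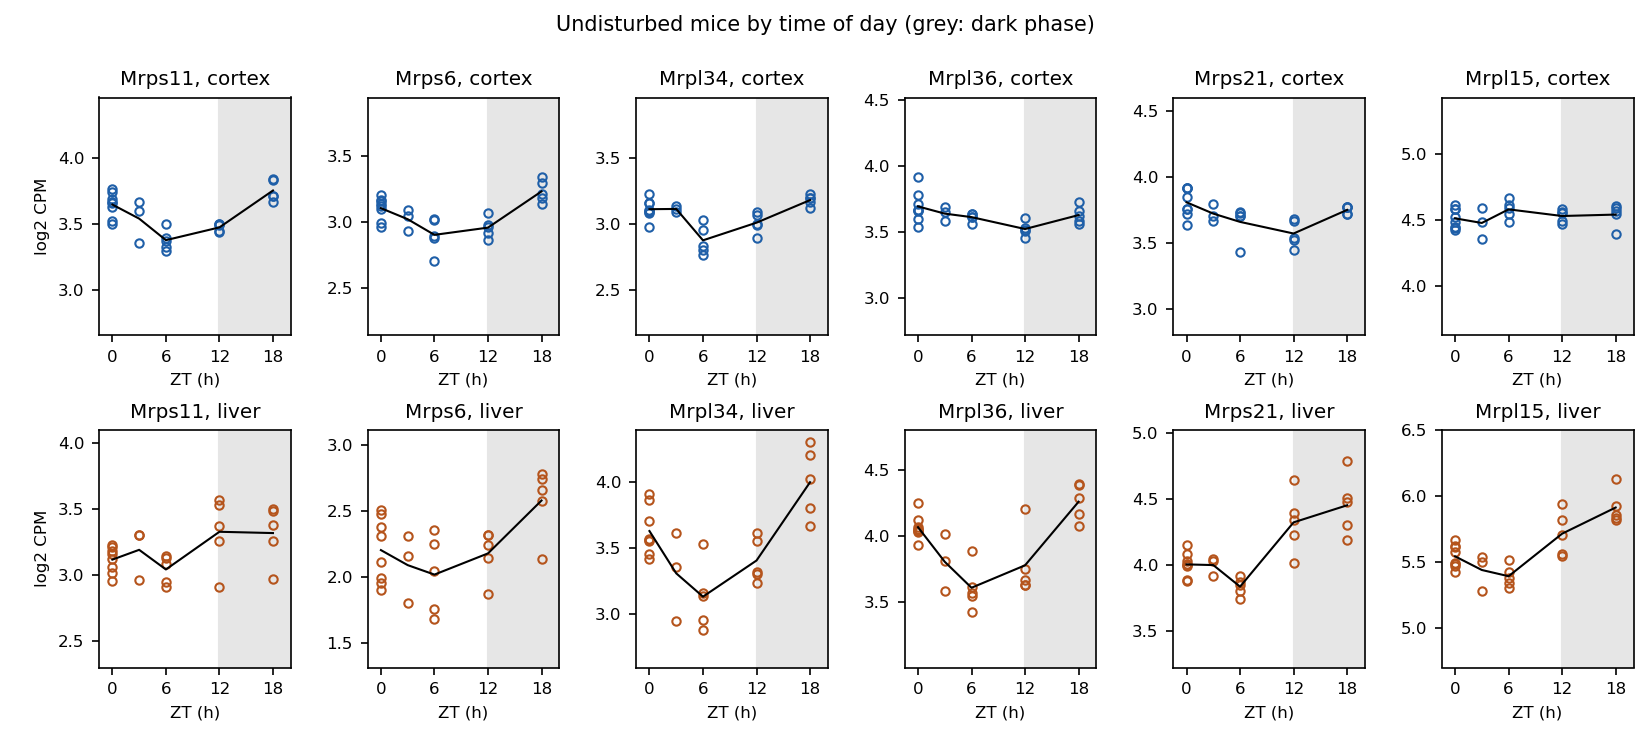
Log2 CPM of 6 members in single libraries of undisturbed mice (circles) at ZT0, 3, 6, 12 and 18, with the mean as a line, in cortex (top) and liver (bottom). Every panel spans the same number of log2 units, and grey marks the dark phase. In liver all but Mrps11 have their highest mean at ZT18, while Mrpl15 is flat in cortex.

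Other genes of mitochondrial translation were counted from fixed lists, beside the shares of all genes called at T30: 15.7 percent higher and 16.8 percent lower in cortex, and 6.34 percent and 6.48 percent in liver. Of 11 regulators of mitochondrial biogenesis, 8 (72.7%) were higher in cortex at T30 and 0 lower, with a median of 0.25 beside -0.01 for all genes. Nrf1, which encodes the factor of the NRF1 motif, rose by 0.33 (SE 0.06, adjusted p = 1.14e-05), the orphan nuclear receptor gene Esrra by 0.31 and Gabpb1, a subunit of GABP, by 0.26. In liver 1 of the 11 was higher, Pprc1 by 0.80 (SE 0.27, adjusted p = 0.0445), with a median of -0.07. Of 23 genes for assembly of the ribosome and modification of its RNA, 5 were higher (21.7%) and 3 lower (13%) in cortex at T30, shares near those of all genes, among them the RNA methyltransferase gene Mrm1 (0.32), Fastkd2 (0.25) and Mettl17 (0.23), and 4 were higher (17.4%) and 0 lower in liver, led by the GTPase gene Noa1 (0.64), Ddx28 (0.47) and Ngrn (0.39). Of 15 translation factors, 1 was higher (6.67%) and 3 lower (20%) in cortex: the elongation factor gene Tufm rose by 0.25, and Guf1 and Mtrf1 had log2 fold changes of -0.49 and -0.42. In liver 2 of them (13.3%) were higher, Mrrf by 0.33 and Gfm2 by 0.23.

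Of 17 mitochondrial aminoacyl-tRNA synthetases, which charge transfer RNAs, 2 were higher (11.8%) and 4 lower (23.5%) in cortex, with Pars2 at -0.51, Iars2 at -0.21 and Cars2 at 0.23. In liver 4 were higher (23.5%) and 0 lower, with Mars2 at 0.62, Ears2 at 0.59 and Yars2 at 0.52. Of 8 genes for mitochondrial transcription and DNA maintenance, 1 was higher and 1 lower in cortex (12.5% each), the DNA helicase gene Twnk at 0.21 and Ssbp1 at -0.18, and 2 (25%) were higher in liver, Twnk at 0.43 and Polg, the DNA polymerase, at 0.21. Of 5 ribosomal proteins whose genes carry other names, Gadd45gip1 rose in cortex by 0.23 and none was called in liver. The messenger RNAs made by the mitochondrial genome itself were listed for 7 genes in cortex and 10 in liver. All 7 had negative values in cortex at T30, with a median of -0.16, and mt-Nd1 and mt-Nd5, both subunits of complex I, were lower, with log2 fold changes of -0.26 (adjusted p = 0.00408) and -0.25 (adjusted p = 0.0154). In liver 0 of 10 were called, of which mt-Co2, mt-Atp6 and mt-Co3 averaged -1.99, -1.43 and -1.76 log2 CPM beside 14.5 for mt-Co1. At such low listed levels a change could hardly have been called.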

How the data were processed

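Cortex and liver RNA of 62 mice was sequenced. Per the submitters' processing notes, the tools were fastp, STAR 2.7.0e and edgeR, and the genome build GRCm38. The authors deposited log2 CPM values, 1 table per tissue, with no counts, so the depth of each library, and the counting error behind each value, are unknown. The label protocol describes stranded poly(A) libraries of liver, and the preparation of the cortex libraries, re-used from an earlier study, is stated by no source used here. The labels do not say more of the replicates than that they are separate mice. Unnamed entries were dropped: 77 of the cortex table, holding 0.0618% of its signal, and 35 of the liver table, holding 0.0337%.

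The deposited values had been adjusted: in cortex 1 dimension, that of the label batch, was missing, and in liver 2, those of an unlabelled factor with 3 levels (50, 8 and 4 libraries) recovered from the table. Log2 values were tested without pseudocount or filter with limma 3.58.1 under R 4.3.3, with a linear model per gene and moderated variances that follow a mean trend, in 1 fit per tissue of 17 groups with label batch and, in liver, that factor (44 and 42 residual degrees of freedom). T0 and T24 controls form ZT0. Baseline was a 4 df F test, all deprived times a 12 df F test. The tissues were compared in 1 fit of 34 groups (86 residual degrees of freedom) over 12194 genes. Both tissues come from the same mouse, which gives the pairing: residuals of the tissues correlated within mice at -0.08 to 0.161 (median 0.0296, over 0.1 in 7 of 62). The blocked fit used cortex minus liver within each mouse (42 residual degrees of freedom). Tests were two-sided, adjusted by Benjamini-Hochberg within a comparison, with a threshold of 0.05. Simulated data were used to test only the T30 comparison within each tissue. They held no batch effect, no 3-level factor and no daily course. The F tests and the comparison of the tissues were not tested in this way.

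Named members are, per tissue and time from T27 to T48, the 2 largest called rises and falls, the 3 widest baseline ranges, the 3 smallest p over 12 times, and the 3 smallest p of each tissue difference. Other members are named in counts of 5 or fewer or to complete a list, after their values were seen. Of other lists, up to 3 called genes at T30 are named. The members and lists were chosen with earlier results of these data known. Positions are those of GENCODE M21 on GRCm38, which annotates exon overlap with another gene for 32 of the 77 members.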

Additional observations from a re-analysis of the deposited data

Results flagged for a closer look

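Of 144 control groups of 4 to 10 libraries examined for the named members and for the mean of all members, 9 held 1 library far from the others by Dixon's criterion, which chance alone meets in about 1 group in 20. In cortex, Mrpl15 was 4.397 in mouse T18N2 beside 4.55 to 4.605 in the other ZT18 controls, and Mrps21 was 3.429 in T6N2 beside 3.701 to 3.735 at ZT6. Mrpl36 was 3.562 in J76N1 beside 3.617 to 3.639 at ZT6. Mouse T12N4 was high at ZT12, with Mrpl32 at 4.082 beside 3.873 to 3.908 and the mean of all members at 4.163 beside 4.104 to 4.12. In liver, mouse T12N1 was high at ZT12, with Mrpl21 at 4.357 beside 3.82 to 3.93 and Mrpl36 at 4.203 beside 3.629 to 3.751. Mrpl45 was 4.658 in T18N8 beside 4.793 to 4.831 at ZT18, and Mrpl54 was 3.391 in T6N4 beside 3.488 to 3.518 at ZT6.

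The deprivation effect at T30 differed between the tissues for 5 of 77 members, beside 10.8 percent of all genes, by a test of the difference itself. The cortex effect minus the liver effect was -0.33 for Mrpl15, -0.293 for Mrpl10, -0.318 for Mrpl45, -0.446 for Mrpl36 and -0.323 for Mrps18a. With both tissues of a mouse as a pair, Mrpl15 (adjusted p = 0.0559), Mrpl45 (adjusted p = 0.0541) and Mrpl36 (adjusted p = 0.0587) no longer passed the threshold, and Mrpl10 and Mrps18a did. The course over the day differed between the tissues for Mrpl15 (adjusted p = 7.04e-06), Mrps21 (adjusted p = 1.84e-05) and Mrpl36 (adjusted p = 0.000422).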

How the results depend on the processing

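None of the called differences of single members changed its direction under the alternatives run. The median over the members moved by more than the spread between libraries in 3 cases: in cortex to 0.007 at T27 without T27S3 and to 0.009 at T36 without T36S1, and in liver to 0.017 at T72 without T72S2. With only the 2 groups of a comparison in the fit, 3 members were called in cortex at T27 in place of 6, 9 at T30 in place of 22, 3 at T36 in place of 6, and 0 in liver at T30 in place of 5. That fit has fewer samples to estimate the spread. With libraries centred on their median, 3 were called in cortex at T27. With same-batch controls, 2 were called in liver at T30, and with batch 1 controls 13 over the liver baseline in place of 26. In liver over the 12 times, in place of 1, 2 members were called without the batch covariate, 3 without the recovered 3-level factor and 2 without the lowest 20% of genes, and at T36 1 was called without that factor in place of 0. For these counts the cause was not tested, and the shares of all genes called under the same alternatives were not set beside them.

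Leaving out 1 library at a time gave 1 to 6 members in cortex at T27 (1 without T3N2 or T3N4, 3 without T3N3, 2 without T27S2 or T27S3), 13 to 23 at T30 (13 without T30S4), 4 to 7 at T36, 0 to 3 at T54 (3 without T54S4) and 18 to 23 over the baseline. In liver it gave 0 to 10 at T30 (0 without T30S1, 10 without T30S3, 3 without T30S4, J76N1, T6N2 or T6N4), 0 to 3 at T36 (3 without T12N1, 1 without T36S4) and 20 to 30 over the baseline. These counts too have no shares of all genes beside them.

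For the tissue difference, the replicate block (both tissues of a mouse as a pair) left 2 members called at T30 in place of 5, and it changed no other count by more than 1.5 times. Leaving out 1 mouse, an alternative chosen after seeing the data, gave 0 to 6 (0 without T30S1 or T30S4, 2 without J76N1, 3 without T6N4 or J76N2), and 20 to 30 over the baseline. At T36, 1 member in place of 0 was called without the batch covariate, without the 3-level factor, with centred libraries or without the lowest 20% of genes. Within a tissue no paired analysis was possible because deprived and control mice are different animals. The calls kept under every alternative were 8 of 22 in cortex at T30 (Mrpl12, Mrpl19, Mrpl35, Mrpl48, Mrpl51, Mrps11, Mrps12 and Mrps35), 2 of 6 at T36 (Mrpl48 and Mrps7), 0 of 6 at T27, 0 of 5 in liver at T30 and 0 of 5 between the tissues. Depth is unknown, so what counting error adds to low members such as Mrpl23 was not measured.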
